A study of Homo sapiens with 6 samples.

Results

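The genes described here are 10 that encode enzymes and helpers of collagen modification, the lysyl hydroxylases PLOD1, PLOD2 and PLOD3, the prolyl 4-hydroxylase subunits P4HA1, P4HA2 and P4HB, the lysyl oxidase LOX, the collagen galactosyltransferase COLGALT1, the prolyl 3-hydroxylase partner CRTAP and the collagen chaperone SERPINH1. They were chosen by name and function, with the values of this same comparison already known, so the differences given for them are a description and were not used as a test. Of the 10, 9 were found among the 11079 genes of the deposited table and all 9 were among the 10008 genes tested. SERPINH1 was not analysed here. The cells were T24, an established human bladder cancer line. One group of 3 libraries came from cells labelled WT that carried a control short hairpin RNA (shControl), and the other 3 came from cells labelled as a BLACAT3 knockdown that carried a short hairpin RNA against BLACAT3 (shBLACAT3), a long noncoding RNA of the gene LINC01535. Both groups had received lentivirus, had been selected with puromycin as stable strains and were grown in the same serum-containing medium. The sequence and number of the hairpins are not given in the labels. Nor do the labels say whether the replicates were separate cultures, so errors and p-values here reflect only how far these libraries differ from one another, and that spread may be technical.

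Collagen chains are modified while they enter the endoplasmic reticulum. Prolyl 4-hydroxylase, built from a catalytic alpha subunit (such as P4HA1 or P4HA2) and the disulfide isomerase P4HB, hydroxylates prolines and so makes the triple helix stable at body temperature. Lysyl hydroxylases convert lysines to hydroxylysines, some of which COLGALT1 and then PLOD3 decorate with sugars, and LOX, acting outside the cell, oxidises lysines and hydroxylysines so that neighbouring chains become crosslinked. All of these hydroxylases need oxygen, iron, ascorbate and 2-oxoglutarate, and several of their genes are known targets of the hypoxia-inducible factors. In tumours the enzymes are known for stiffening the matrix around the cells.

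The promoter windows of the 5 genes that the fit called between the groups are shown first, because P4HA1, P4HA2, PLOD1 and LOX were lower and PLOD3 higher in shBLACAT3 cells. Each window runs from 250 bases before to 50 bases after the annotated start of the gene, from RefSeq on GRCh38.p14, and is written in the direction of the gene. Capitals mark the core of the hypoxia response element, searched as ACGTG or GCGTG, and the CCAAT box, searched as CCAAT, each on both strands and with overlaps counted. RefSeq windows matched all 10 listed genes by symbol, with 3 windows for LOX, of which the one farthest upstream is shown.
PLOD3, chr7:101217532-101217831, minus strand: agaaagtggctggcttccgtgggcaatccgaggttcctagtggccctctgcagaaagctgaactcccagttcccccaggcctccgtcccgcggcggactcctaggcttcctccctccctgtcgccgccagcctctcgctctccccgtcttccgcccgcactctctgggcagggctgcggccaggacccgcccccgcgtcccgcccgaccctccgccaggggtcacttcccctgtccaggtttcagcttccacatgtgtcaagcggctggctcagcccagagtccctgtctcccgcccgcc
PLOD1, chr1:11934467-11934766, plus strand: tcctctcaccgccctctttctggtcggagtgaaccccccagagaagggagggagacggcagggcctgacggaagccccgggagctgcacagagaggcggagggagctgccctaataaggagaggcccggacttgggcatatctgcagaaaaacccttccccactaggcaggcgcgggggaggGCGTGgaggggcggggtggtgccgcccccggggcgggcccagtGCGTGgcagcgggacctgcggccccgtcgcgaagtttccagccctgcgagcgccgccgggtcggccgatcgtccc
P4HA1, chr10:73096817-73097116, minus strand: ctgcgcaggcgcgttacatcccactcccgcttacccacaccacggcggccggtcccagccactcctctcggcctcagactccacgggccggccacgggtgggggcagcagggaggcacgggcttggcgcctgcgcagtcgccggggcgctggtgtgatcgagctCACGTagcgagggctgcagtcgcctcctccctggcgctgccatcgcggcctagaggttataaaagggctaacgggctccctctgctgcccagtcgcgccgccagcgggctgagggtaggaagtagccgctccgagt
P4HA2, chr5:132227042-132227341, minus strand: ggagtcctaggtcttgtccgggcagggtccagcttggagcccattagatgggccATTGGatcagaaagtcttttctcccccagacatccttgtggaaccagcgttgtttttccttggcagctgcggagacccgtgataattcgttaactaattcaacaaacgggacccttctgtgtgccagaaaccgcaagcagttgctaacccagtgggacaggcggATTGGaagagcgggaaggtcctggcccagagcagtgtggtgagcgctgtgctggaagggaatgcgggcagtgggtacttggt
LOX, chr5:122078210-122078509, minus strand: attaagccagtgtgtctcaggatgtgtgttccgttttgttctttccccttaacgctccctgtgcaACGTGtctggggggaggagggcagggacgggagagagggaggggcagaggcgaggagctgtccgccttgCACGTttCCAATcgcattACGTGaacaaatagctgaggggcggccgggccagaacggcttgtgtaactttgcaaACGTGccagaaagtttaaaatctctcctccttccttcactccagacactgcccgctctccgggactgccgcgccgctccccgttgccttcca

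The LOX window held 4 matches to the hypoxia core and 1 CCAAT box, the PLOD1 window 2 hypoxia cores and the P4HA1 window 1. The P4HA2 window had 0 hypoxia cores and 2 CCAAT boxes, and the PLOD3 window had 0 of either. Among 35116 windows of this length, 48.4% held at least 1 hypoxia core and 34.6% at least 1 CCAAT box. Among the genes not called, PLOD2 had 3 hypoxia cores and 1 CCAAT box, P4HB 1 and 3, COLGALT1 2 and 0, and CRTAP 1 and 0. A match describes letters in this window only, and the windows of lower and of uncalled genes both held such matches.

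Levels are given as FPKM, a read density that corrects for transcript length and library size, so they can be compared between genes. In bulk RNA, fewer cells of a type and less RNA per cell cannot be told apart. The listed values summed to between 211958 and 226953 FPKM per library, and the read depth behind them is unknown because FPKM holds no counts. Differences are shBLACAT3 minus shControl on log2(FPKM + 1), a scale on which low genes appear to change less than they do, and a gene was called where limma gave an adjusted p under 0.05 over all 10008 genes. The level of BLACAT3 itself was not analysed here, so the group labels were not checked against it. Of 15 epithelial and urothelial markers 5 were in the table, with KRT7, KRT8, KRT18, PPARG and FOXA1 summing to 180 to 211 FPKM per shControl library and 124 to 142 per shBLACAT3 library. The other 10, among them EPCAM, CDH1, GATA3 and the uroplakins, were not analysed here. Of 9 fibroblast markers 1 was in the table, FBLN1, at 6.74 to 6.93 FPKM in shControl and 6.94 to 7.60 in shBLACAT3, and of 5 endothelial and 6 leukocyte markers 0 were. KRT8 and KRT18 carried that difference and were called lower. KRT7, at 24.2, 22.2 and 13.6 FPKM in shControl and 31.8, 28.6 and 35.5 in shBLACAT3, and PPARG (ratio of the means 1.25) stood higher in every shBLACAT3 library but were not called. FOXA1 (ratio of the means 0.741) stood lower in every shBLACAT3 library and was not called either. The part of these markers in the results below was not tested.

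Of the 9 genes, the fit called 1 higher (PLOD3) and 4 lower (P4HA1, PLOD1, P4HA2 and LOX) in shBLACAT3 cells. Over all genes tested 9.37% were called, 2.57% higher and 6.80% lower. The groups did not overlap in these 5 genes and overlapped in the other 4, against 32.8% of all tested genes without overlap. The median log2 difference of the 9 genes was -0.19 and that of all tested genes -0.0025. Nothing is read from these shares, because the genes were picked with the comparison in view.

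**Figure D1:**
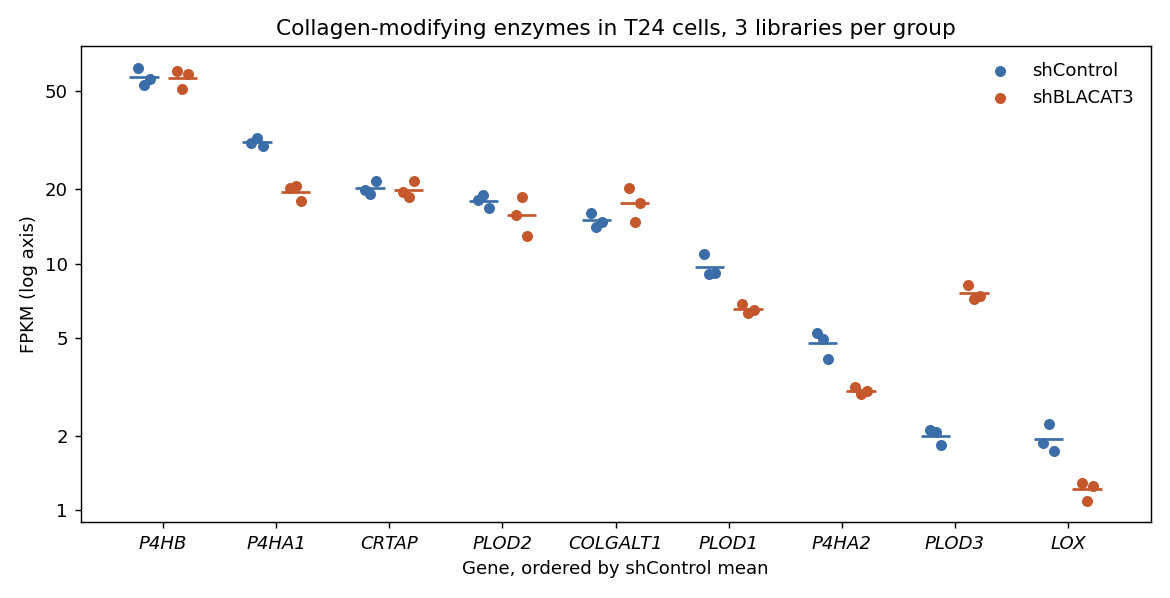
FPKM of each gene in every library on a log axis, with shControl in blue, shBLACAT3 in orange and a short line at each group's mean. PLOD3 moves from about the level of LOX to above that of PLOD1, while the points of P4HB and CRTAP lie over the same range in both groups.

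Among the lysyl hydroxylases PLOD3 was higher and PLOD1 lower in shBLACAT3 cells, and PLOD2 overlapped between the groups. PLOD3 encodes lysyl hydroxylase 3, which also carries the sugar-transferring activities that complete glucosylgalactosyl-hydroxylysine. It stood at 2.11, 2.07 and 1.83 FPKM in the shControl libraries and at 8.15, 7.15 and 7.39 in the shBLACAT3 libraries. The lowest shBLACAT3 library lay well above the highest shControl library. The means were 2.01 ± 0.152 and 7.56 ± 0.523 FPKM (SD, n = 3), a ratio of 3.77 between the means and a log2 difference of 1.51 (SE 0.08). By that difference PLOD3 ranked 4 from the top of 10008 genes.

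PLOD1 encodes lysyl hydroxylase 1, which modifies lysines within the collagen triple helix. It was at 10.9, 9.11 and 9.17 FPKM in shControl and at 6.84, 6.28 and 6.45 in shBLACAT3. Every shBLACAT3 library was lower than every shControl library, and the ratio of the means was 0.671 (9.71 ± 0.990 against 6.52 ± 0.286 FPKM, SD, n = 3; log2 difference -0.51, SE 0.09). PLOD2 encodes lysyl hydroxylase 2, the form that hydroxylates the telopeptides at the ends of collagen chains and so sets the type of crosslink. It stood at 18.1, 19.0 and 16.8 FPKM in shControl and at 15.7, 18.7 and 12.9 in shBLACAT3. The second shBLACAT3 library was inside the shControl range and the other 2 below it, and the log2 difference was -0.19 (SE 0.13). It was -0.31 without shBLACAT3 replicate 2 and -0.064 without shBLACAT3 replicate 3.

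The 3 lysyl hydroxylase genes together held about the same level in both groups, while its division among them differed. Their summed FPKM was 29.7 ± 1.68 in shControl and 29.8 ± 2.77 in shBLACAT3 cells (SD, n = 3). PLOD3 made up 6.80%, 6.87% and 6.59% of that sum in the shControl libraries and 26.5%, 22.3% and 27.6% in the shBLACAT3 libraries. The share of PLOD1 went from 32.7% ± 2.40 to 22.0% ± 2.29, and that of PLOD2, the most abundant of the 3 in every library, from 60.6% ± 2.36 to 52.5% ± 5.09. COLGALT1, whose product adds the galactose to hydroxylysine before PLOD3 adds the glucose, was at 16.1, 14.1 and 14.7 FPKM in shControl and at 20.3, 14.8 and 17.6 in shBLACAT3. Its groups overlapped and its log2 difference was 0.22 (SE 0.12), with 0.11 without shBLACAT3 replicate 1 and 0.33 without shBLACAT3 replicate 2. The ratio of PLOD3 to COLGALT1 levels was 0.132, 0.148 and 0.125 in shControl and 0.401, 0.482 and 0.419 in shBLACAT3.

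**Figure D2:**
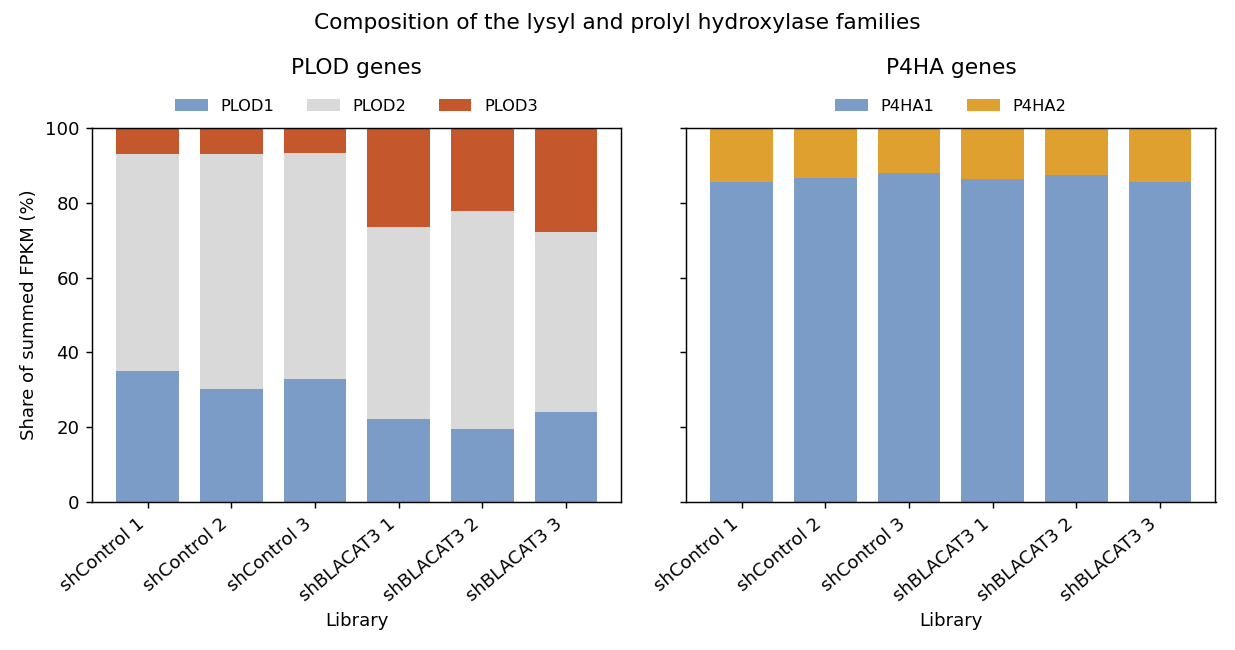
Stacked bars give, for each library, the percent of the summed FPKM of PLOD1, PLOD2 and PLOD3 (left) and of P4HA1 and P4HA2 (right) that each gene holds. The PLOD3 share is 6.59% to 6.87% in shControl and 22.3% to 27.6% in shBLACAT3, while the P4HA1 share stays between 85.5% and 88.0% in all 6 libraries.

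P4HA1 and P4HA2, which encode catalytic subunits of prolyl 4-hydroxylase, were lower in shBLACAT3 cells, while P4HB, the gene of its other subunit, overlapped between the groups. P4HA3, a further gene for a catalytic subunit, was not analysed here. P4HA1, the main catalytic subunit in most cells, stood at 30.9, 32.5 and 30.1 FPKM in shControl and at 20.2, 20.6 and 18.0 in shBLACAT3. The groups were far apart relative to their spread, with means of 31.2 ± 1.23 and 19.6 ± 1.37 FPKM (SD, n = 3), a ratio of 0.629 and a log2 difference of -0.64 (SE 0.07). P4HA2, the second isoform of that subunit, was at 5.24, 4.93 and 4.11 FPKM in shControl and at 3.15, 2.96 and 3.04 in shBLACAT3. Its groups did not overlap either, the ratio of the means was 0.641 and the log2 difference was -0.50 (SE 0.10). RefSeq places the antisense gene P4HA2-AS1 and the microRNA gene MIR6830 over P4HA2, and neither was analysed here. The strand setting of the authors' counting is not given in the sources used here, so antisense reads may be counted with P4HA2.

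P4HA1 and P4HA2 differed between the groups in nearly the same proportion. Their summed FPKM was 35.9 ± 1.61 in shControl and 22.6 ± 1.37 in shBLACAT3 cells (SD, n = 3), and P4HA1 made up 86.8% ± 1.25 and 86.5% ± 0.930 of it. P4HB, which also serves as a general disulfide isomerase, stood at 62.5, 53.2 and 56.3 FPKM in shControl and at 60.8, 51.0 and 58.9 in shBLACAT3. Its groups overlapped almost fully, with a log2 difference of -0.011 (SE 0.09). The level of P4HB was 1.73, 1.42 and 1.64 times the summed level of the catalytic subunits in shControl and 2.61, 2.16 and 2.80 times in shBLACAT3.

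LOX, the copper-dependent oxidase that starts crosslink formation outside the cell, was among the lowest of the 9 genes and was lower still in shBLACAT3 cells. It was at 1.86, 2.24 and 1.74 FPKM in shControl and at 1.29, 1.09 and 1.25 in shBLACAT3. The groups did not overlap, and the means were 1.95 ± 0.259 and 1.21 ± 0.102 FPKM (SD, n = 3; ratio 0.621; log2 difference -0.41, SE 0.09). In RefSeq the gene SRFBP1 lies on the opposite strand and overlaps LOX. SRFBP1 stood at 7.26, 8.73 and 8.68 FPKM in shControl and at 13.4, 14.6 and 9.13 in shBLACAT3, above every shControl library, with an adjusted p in limma of 0.12, and of 0.014 without shBLACAT3 replicate 3. How reads of the overlapping stretch were divided between the 2 genes is not known, and its part in the LOX values was not tested.

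CRTAP, the partner of the prolyl 3-hydroxylase that modifies single prolines of fibrillar collagen chains, was at 19.9, 19.1 and 21.7 FPKM in shControl and at 19.6, 18.6 and 21.6 in shBLACAT3. The groups covered almost the same range, and the log2 difference was -0.02 (SE 0.08).

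**Figure D3:**
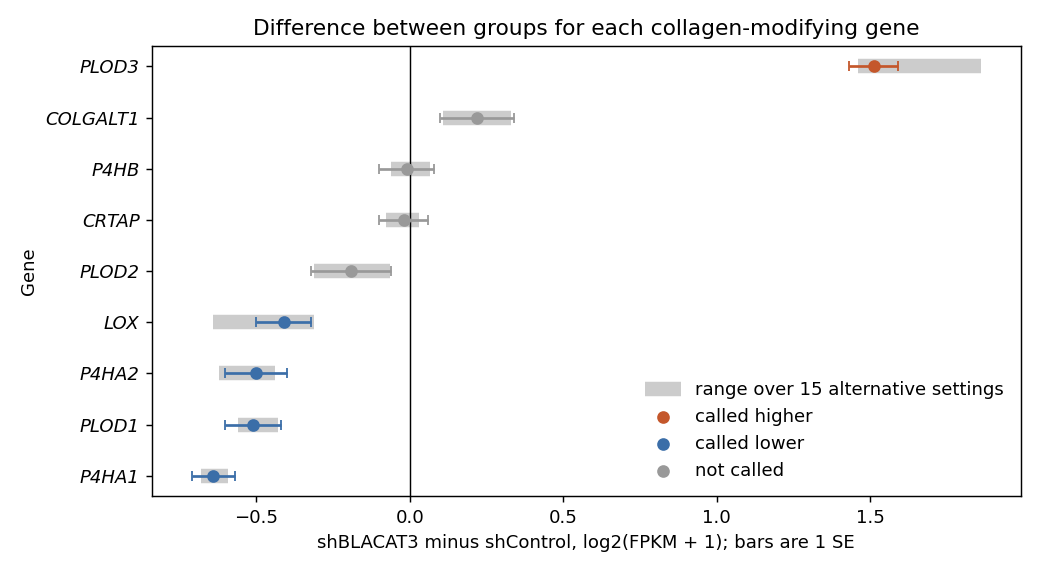
Log2 difference of each gene between the groups (points, with bars of 1 SE) and the range of that difference over 15 alternative settings (grey). The PLOD3 range, from 1.46 to 1.86, lies apart from all others, those of P4HA1, PLOD1, P4HA2 and LOX stay below 0, and those of P4HB and CRTAP span 0.

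The calls rested on which libraries were kept for 3 of the 5 genes. PLOD3 and P4HA1 were past the threshold in all 15 alternative settings, PLOD1 in 12, P4HA2 in 10 and LOX in 7. The filter at a mean of 0.1 FPKM and no filter kept the same genes, so these 2 of the 15 are the same fit. PLOD1 lost its call without shControl replicate 1, 2 or 3 (adjusted p in limma of 0.061, 0.051 and 0.055). P4HA2 lost it without shControl replicate 1 or 2 (0.10 and 0.097) and without shBLACAT3 replicate 1 or 2 (0.066 and 0.061). LOX, with 0.041 over all libraries, lost it whichever of the 6 was left out, with adjusted p between 0.059 and 0.13. The signs of these 5 differences did not turn in any of the 15 settings.

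The order of the levels differed between the groups in 3 exchanges of place, of P4HA1 with CRTAP, of PLOD2 with COLGALT1, and of PLOD3 past P4HA2 and PLOD1. In shControl cells it ran P4HB, P4HA1, CRTAP, PLOD2, COLGALT1, PLOD1, P4HA2, PLOD3 and LOX, and only the last pair had overlapping ranges. In shBLACAT3 cells it ran P4HB, CRTAP, P4HA1, COLGALT1, PLOD2, PLOD3, PLOD1, P4HA2 and LOX. There the neighbours CRTAP and P4HA1, P4HA1 and COLGALT1, and COLGALT1 and PLOD2 overlapped, while PLOD3 lay above PLOD1 in all libraries (7.15 to 8.15 against 6.28 to 6.84 FPKM).

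The genes beside each enzyme gene on its chromosome were read as well, as the nearest on either side in RefSeq that the table holds. The table held 18 such neighbours. The fit tested 16 of them and called 0 higher and 2 lower, beside 9.37% of all genes called in either direction. ZNHIT1, the next gene to PLOD3 and read on the opposite strand, stood at 7.25, 7.95 and 6.89 FPKM in shControl and 6.66, 5.56 and 7.49 in shBLACAT3 (adjusted p 0.45 in limma), so the groups overlapped there while PLOD3 was 3.77 times as high. The other neighbour of PLOD3 in the table, VGF, had a log2 difference of -0.22 (SE 0.13). The 2 called neighbours were PLSCR4, a phospholipid scramblase gene, which RefSeq separates from PLOD2 by 1 gene that is not in the table, with means of 3.63 ± 0.176 and 1.74 ± 0.362 FPKM (SD, n = 3, adjusted p 0.0093 in limma), and CSF2, the cytokine GM-CSF, the nearest gene to P4HA2 on one side, with 4.64 ± 0.695 and 1.52 ± 0.193 FPKM (adjusted p 0.0021). CSF2 lies 113977 bases from P4HA2 in RefSeq. On the other side SLC22A4, at 66541 bases, had means of 0.716 ± 0.122 FPKM in shControl and 0.335 ± 0.0628 in shBLACAT3 and was not tested.

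Lists of other genes around these enzymes held 130 names, of which 80 were in the table and 73 were tested. Of the 73, 15 were called lower and 2 higher (ERP29 and FN1), beside 6.80% and 2.57% of all genes. Their median log2 difference was -0.12. In the prolyl 3-hydroxylase complex, PPIB, the cyclophilin that speeds proline isomerisation in collagen, was the 1 of 4 tested genes called, lower at 183, 190 and 207 FPKM against 237, 229 and 235 (adjusted p 0.042 in limma). P3H1, P3H2 and P3H4 were not called, with differences of -0.13, -0.09 and -0.10. Of the oxygen-sensing relatives EGLN1, EGLN2 and HIF1AN, 0 were called over all genes in limma, and EGLN1, which marks the hypoxia-inducible factors for destruction, came closest at 14.7, 14.5 and 14.1 FPKM in shControl and 12.6, 12.2 and 11.8 in shBLACAT3 (adjusted p 0.072, unadjusted p 0.0085). Of the 3 tested crosslinking enzymes besides LOX, TGM2, the tissue transglutaminase, was called lower, at 89.3, 85.2 and 82.3 FPKM in shControl and 53.5, 48.5 and 57.0 in shBLACAT3 (adjusted p 0.0026). LOXL2, a lysyl oxidase relative, was at 14.0, 13.2 and 12.8 FPKM in shControl and 16.9, 14.5 and 17.2 in shBLACAT3. Its groups did not overlap, but it was not called (limma, adjusted p 0.11).

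Of 16 folding helpers of the endoplasmic reticulum, 6 were called lower and 1 higher, beside 6.80% and 2.57% of all genes, and their median log2 difference was -0.23 beside -0.0025 over all genes. PDIA4, a disulfide isomerase of the family to which P4HB belongs, was at 193, 188 and 193 FPKM in shControl and 132, 135 and 139 in shBLACAT3, and the groups were well apart (adjusted p 0.0019 in limma). PDIA3, PDIA6 and ERP44, of the same family, had log2 differences of -0.39, -0.24 and -0.34, and KDELR1 and KDELR3, receptors that return escaped chaperones to the endoplasmic reticulum, -0.32 each. ERP29, another member of the disulfide isomerase family, was the 1 gene called higher, at 24.9 ± 0.617 and 32.1 ± 0.746 FPKM (SD, n = 3, adjusted p 0.012). P4HB stood at -0.011 beside relatives of which 4 were called lower and ERP29 higher, while PDIA5 and TXNDC5 were not called. Of the 7 calls among the folding helpers, 6 were lost without at least 1 library, and that of PDIA4 was kept whichever library was left out.

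**Figure D4:**
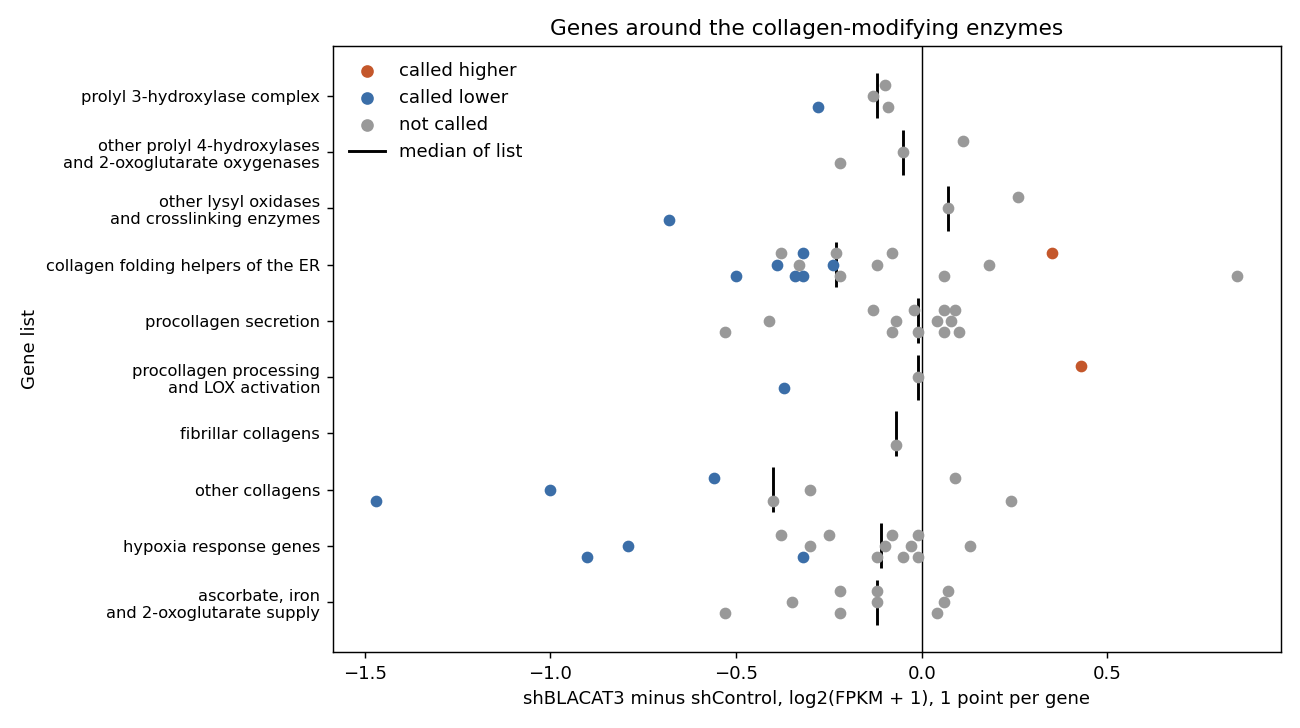
Each point is a tested gene of the list on the left, placed by its log2 difference between the groups, with called genes in colour and the median of the list as a black line. The called genes lie to the left of 0 except ERP29 and FN1, and the 13 secretion genes hold no called gene.

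Few of the listed collagens, the substrates of these enzymes, were in the table. Of 11 fibrillar collagen genes 1 was in the table, COL27A1, at 1.34 ± 0.0506 FPKM in shControl and 1.24 ± 0.170 in shBLACAT3 (SD, n = 3), and the others were not analysed here. Of 30 other collagen genes 10 were in the table and 7 tested. Of the 7, 3 were called lower and 0 higher, beside 6.80% and 2.57% of all genes tested. Their median log2 difference was -0.40, beside -0.0025 over all genes tested. COL4A1, a chain of basement membrane collagen IV, was at 38.3, 35.0 and 33.5 FPKM in shControl and 22.3, 24.8 and 24.3 in shBLACAT3. COL6A1, a chain of the beaded filament collagen VI, was at 3.61, 3.16 and 2.50 FPKM in shControl and 0.642, 0.304 and 0.475 in shBLACAT3, and COL6A2, its partner chain, at 3.74, 3.10 and 3.26 against 1.16, 1.03 and 1.38. The groups of all 3 genes were apart (adjusted p 0.0064, 0.0014 and 0.0019 in limma). COL6A1 averaged 0.474 FPKM in shBLACAT3, while in every row of the table the higher group mean was at least 0.501 FPKM. It was thus in the table only through shControl, and its call is given only as a description. COL4A2, which pairs with COL4A1, was at 37.6, 34.4 and 33.3 FPKM in shControl and 30.7, 26.2 and 28.3 in shBLACAT3 and was not called (limma, adjusted p 0.071). COL18A1, of basement membranes, and COL12A1, which lies on fibril surfaces, had overlapping groups, with means of 18.9 and 22.5 FPKM and of 7.90 and 8.44 FPKM in shControl and shBLACAT3, and neither was called. Collagens IV and VI are known as substrates that depend on the sugar-adding activity of PLOD3, the 1 gene of the 9 that was called higher.

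Genes under a mean of 1 FPKM were left out of the fit, and some of them belong here. COL17A1, a transmembrane collagen of hemidesmosomes, was at 1.81, 1.28 and 1.21 FPKM in shControl and 0.167, 0.157 and 0.131 in shBLACAT3. BMP1, the proteinase that trims procollagen and activates LOX, was at 1.18, 0.979 and 1.01 FPKM in shControl and 0.626, 0.330 and 0.565 in shBLACAT3. PCOLCE, which enhances that cleavage, was at 0.896, 0.878 and 0.752 against 0.267, 0.273 and 0.244. With the filter lowered to a mean of 0.1 FPKM, these 3 genes and COL13A1 were called lower over 11079 genes (adjusted p in limma of 0.0017 for COL17A1, 0.034 for BMP1, 0.0043 for PCOLCE and 0.041 for COL13A1), while COL4A4, P4HTM and ANKRD37 were not. In every row of the table the higher group mean was at least 0.501 FPKM. COL17A1, PCOLCE and COL13A1 averaged less than that in shBLACAT3, so they were in the table only through shControl. The same held for COL6A1 of the main fit, with a mean of 0.474 FPKM in shBLACAT3. For genes this low a call is in part set by that floor and is given only as a description. Within the main fit PCOLCE2, a relative of PCOLCE, was called lower (2.21 ± 0.156 against 1.49 ± 0.155 FPKM, SD, n = 3, adjusted p 0.045), and FN1, fibronectin, which binds both BMP1 and LOX, was called higher (30.8 ± 0.887 against 41.8 ± 1.23 FPKM, adjusted p 0.0056).

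The 13 genes of procollagen secretion build the coat vesicles that carry bulky procollagen out of the endoplasmic reticulum. They had 0 calls in limma, beside 9.37% of all genes tested called in either direction. Their median log2 difference was -0.01, beside -0.0025 over all genes tested. SEC24D, a cargo-binding coat subunit, was at 7.21, 6.67 and 6.72 FPKM in shControl and 3.85, 5.46 and 5.57 in shBLACAT3 (adjusted p 0.11, unadjusted p 0.017), and TFG at 29.9 ± 8.28 and 19.9 ± 0.664 FPKM (SD, n = 3, adjusted p 0.16, unadjusted p 0.034). TFG was called without shControl replicate 3 (log2 difference -0.77, adjusted p 0.0058 in limma) and SEC24D with array weights (-0.50, adjusted p 0.046). That replicate, at 20.4 FPKM, was the only shControl library within the shBLACAT3 range of TFG (19.2 to 20.5), so the gained call follows from leaving it out. The 9 tested genes of ascorbate, iron and 2-oxoglutarate supply also had 0 calls in limma (median -0.12), with IDH1 (adjusted p 0.13, unadjusted p 0.023) and FTH1 (adjusted p 0.16, unadjusted p 0.035) closest to the threshold. FTH1 was called without shControl replicate 2 (log2 difference -0.76, adjusted p 0.017 in limma), and stood at -0.36 without shControl replicate 1. Replicate 2, at 132 FPKM, was the only shControl library within the shBLACAT3 range of FTH1 (118 to 136), so this call too follows from leaving it out. Of 14 tested hypoxia response genes 3 were called lower and 0 higher (median -0.11), beside 6.80% and 2.57% of all genes tested. BNIP3, a mitophagy receptor, was at 33.6, 33.2 and 34.1 FPKM in shControl and 20.2, 17.9 and 18.9 in shBLACAT3 (adjusted p 0.00082). Its ratio to shControl was 0.566, beside 0.629 for P4HA1 and 0.641 for P4HA2. NDRG1 was lower by a log2 difference of -0.90 (SE 0.14, adjusted p 0.012, and 0.052 without shControl replicate 3) and LDHA by -0.32 (SE 0.07, adjusted p 0.045). PGK1, ENO1 and VEGFA overlapped between the groups and were not called. SLC2A1 and PDK1 stood lower in every shBLACAT3 library (ratios of the means 0.829 and 0.775) but were not called (adjusted p 0.13 and 0.1 in limma). HIF1A itself, at 48.5, 37.9 and 30.6 FPKM in shControl and 30.3, 33.6 and 24.8 in shBLACAT3, overlapped between the groups.

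Of the 17 called genes in these lists, 7 were still called whichever library was left out, namely BNIP3, COL4A1, COL6A1, COL6A2, FN1, PDIA4 and TGM2. Among them COL6A1 was in the table only through shControl, so that its call remains a description. The other 10 lost the call without at least 1 library, and PPIB, PDIA6, KDELR1, LDHA and PCOLCE2 lost it in each of 5 such fits, all but that without shBLACAT3 replicate 3. The lists' genes called numbered 8, 10 and 9 without shControl replicate 1, 2 or 3. They numbered 11, 14 and 17 without shBLACAT3 replicate 1, 2 or 3. These counts hold every listed gene called in that fit, also any that was not among the 17.

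Genes with the pattern nearest to that of PLOD3 and LOX were found by the root mean square difference of centred log2(FPKM + 1) values over the 6 libraries. Nearest to PLOD3 were NOG (0.102), F11R (0.125) and DHRS3 (0.162), and NOG, a secreted BMP antagonist, stood at 6.01, 7.25 and 6.88 FPKM in shControl and 21.5, 20.3 and 19.3 in shBLACAT3. Nearest to LOX were SHFL (0.033), NUMBL (0.039) and IGF1R (0.043), each with non-overlapping groups and ratios between the means of 0.684, 0.636 and 0.598. With 2 groups of 3 libraries, nearness reflects the step between the groups.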

How the data were processed

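Total RNA of 6 T24 cell samples was made into libraries with a stranded kit, per the labels' protocols. The submitters' processing notes name cutadapt, HISAT2 2.1.0 and StringTie. No source used here gives the genome build, the annotation or the strand setting of the counting. The deposited values were read as FPKM because of their range and because StringTie is named, as the header states no unit. Columns headed NC were read as shControl and SH as shBLACAT3. In each of the 11081 rows the higher group mean was at least 0.501 FPKM, so genes low in both groups were not analysed here. Symbols matched 11007 rows by Ensembl identifier, and rows of the 2 repeated symbols were summed. Genes averaging at least 1 FPKM over the libraries entered limma 3.58.1 (R 4.3.3) as log2(FPKM + 1). The model held the group alone, moderated variances along a trend with the mean, and gave two-sided p, adjusted by Benjamini and Hochberg across the 10008 genes (threshold 0.05). The script was tested on simulated data.

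Members, lists and the rule for named genes were chosen with earlier results of these data known. The rule named all 10 members and, from each list, up to 4 called genes by size (all where a count was 5 or fewer) or the 2 of smallest p where none was called. It also named the RefSeq neighbours of each member and the 3 genes closest in pattern to PLOD3 and to LOX. Any other gene was named after its values were seen. Alternatives were a replicate block, another pseudocount (0.1), looser filters (0.1 or none), median scaling, quantile normalization, no trend, robust moderation, array weights and leaving out each library. For genes that are no members they were added after the data were seen. Coordinates are given only for the RefSeq promoter windows (GRCh38.p14). Figures were drawn with matplotlib 3.10.9.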

Additional observations from a re-analysis of the deposited data

How the results depend on the processing

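With the replicate number as a block, 612 genes were called in place of 938, 3 of the 9 enzyme genes in place of 5 (P4HA2 and LOX were lost, with adjusted p in limma of 0.055 and 0.097) and 11 of the listed pathway genes in place of 17. Same-numbered libraries of the 2 groups had correlations of their deviations of 0.1, 0.117 and 0.09, against -0.116 to 0.024 for the other pairs. Each library thus correlated best with its own number. The main fit did not take the numbers to pair the samples, and the cause of these correlations was not tested. With 1 library left out, between 357 and 1339 genes, 2 to 4 enzyme genes and 8 to 17 pathway genes were called. Without shBLACAT3 replicate 3 the count of all genes called rose from 938 to 1339, while without any other single library it fell. Fewer libraries were fitted in each of those settings, and the cause of the spread was not tested. Quantile normalization ended the calls of LOX (adjusted p 0.084), LDHA (0.063) and PCOLCE2 (0.11). Median scaling ended those of PPIB (0.10), PDIA6 (0.09), KDELR1 (0.062), LDHA (0.08) and PCOLCE2 (0.059), leaving 12 pathway genes, and 13 were called with no trend. Among the genes followed by name, calls were gained by TFG, FTH1 and SRFBP1 without 1 library each and by SEC24D with array weights. Other pathway genes gained calls too, as 4 were called higher without shBLACAT3 replicate 2. With array weights 3 were called higher, beside 2 in the main fit. Which genes these were was not followed. For TFG, FTH1 and SRFBP1 the library left out was the one of its group nearest to the other group. Of 135 values of the enzyme genes under the 15 alternatives, 113 kept sign and side of the threshold, 16 lost the call and 6 turned sign. These counts hold the filter at 0.1 and no filter separately, although both are the same fit. The 6 were those of P4HB under quantile normalization (0.0028), array weights (0.024) and without shControl replicate 1 (0.052) or shBLACAT3 replicate 2 (0.065), and of CRTAP without shControl replicate 3 (0.029) or shBLACAT3 replicate 2 (0.026). Over the single left-out libraries, P4HB ranged from -0.062 to 0.065 and CRTAP from -0.076 to 0.029. COL27A1 also turned sign under quantile normalization (0.045). The cause of these turns was not tested. Depth is unknown, so precision rests on 3 libraries per group.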

Other observations

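Some genes of the lists differed widely between libraries of 1 group. TXNDC5, a disulfide isomerase gene, was listed at 55.4 FPKM in shControl replicate 1 and 52.9 in shBLACAT3 replicate 1, and at 3.12 to 4.20 in the other 4 libraries. SAR1A, a GTPase that starts coat assembly on secretory vesicles, was at 40.1, 12.5 and 12.2 FPKM in shControl and at 21.6, 27.7 and 8.79 in shBLACAT3. ADM, the vasodilator peptide adrenomedullin, was at 9.58, 3.67 and 3.72 in shControl and at 4.48, 9.61 and 4.23 in shBLACAT3. TMEM38B, an ion channel gene of the endoplasmic reticulum whose loss impairs collagen modification, was at 4.65, 5.31 and 5.30 FPKM in shControl and at 14.1, 5.99 and 11.4 in shBLACAT3, with the groups apart but an adjusted p of 0.11 in limma. These genes were chosen after their values were seen.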
